A study of Mus musculus with 8 samples.

Results

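Dynasore, a small molecule that inhibits the GTPase dynamin and with it the pinching off of endocytic vesicles, was compared with its DMSO vehicle in C2C12 mouse cells that were all exposed to BMP-2. The comparison held 4 of the 8 arrays of the study, the 2 labelled BMP-2+Dynasore and the 2 labelled BMP-2+DMSO, taken by their labels. BMP-2+Dynasore cells received 30 nM BMP-2 for 6 h together with 40 µM dynasore, and BMP-2+DMSO cells received the same BMP-2 with 0.05% DMSO. The other 4 arrays, 2 labelled Dynasore and 2 labelled DMSO, carried no BMP-2. Before BMP-2 was added, cells had been without serum for 4 h, with the inhibitor or vehicle present from 2 h onwards, and the medium stayed free of serum during stimulation. The labels give a DMSO content for the vehicle groups alone, but by the methods dynasore was kept as a stock in DMSO, so its groups received DMSO as well. C2C12 is 1 established line of mouse myoblasts that takes on osteoblast features under BMP-2. Each group consisted of 2 biological duplicates on Illumina mouse BeadChips.

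BMP-2 binds serine/threonine kinase receptors at the cell surface, which phosphorylate Smad1, Smad5 and Smad8. These join Smad4, enter the nucleus and switch on direct targets such as the Id genes, which encode inhibitors of myogenic transcription factors, and later the genes of the osteoblast. Receptors leave the surface by clathrin-dependent and caveolar uptake, both of which need dynamin. The ATF4 and CHOP pathway answers amino acid shortage and endoplasmic reticulum (ER) stress, HIF answers low oxygen or low iron, NRF2 answers oxidants, and SREBP drives sterol synthesis when cholesterol is low. SRF with its actin-sensing partner MRTF, and YAP with TEAD, drive cytoskeletal and matrix genes.

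Of 18138 probes, 10244 were tested because they exceeded the background on 2 or more arrays, and they covered 9390 named genes. The background, taken as the most frequent intensity of the dim probes, was 45.2 for BMP-2+Dynasore replicate 2 and 242 for BMP-2+DMSO replicate 2, and ranged from -1.2 to 14.2 for the remaining 6 arrays. On BMP-2+DMSO replicate 2, 7429 probes were above background, against 8874 to 9463 on the other 7. Of 4349 probes that were bright on the other arrays, 411 (9.45%) were at least 8-fold lower on it than on its duplicate. Vim, the intermediate filament protein of mesenchymal cells, had normalized log2 signals of 14.50 and 13.22 on the BMP-2+Dynasore arrays, against 14.71 and 5.92 on the BMP-2+DMSO arrays. The correlation between duplicates was 0.978 for BMP-2+Dynasore and 0.775 for BMP-2+DMSO, against 0.995 for Dynasore and 0.994 for DMSO. Each gene was set against BMP-2+DMSO replicate 1 and against replicate 2 in separate limma fits of 7 arrays, and was called when its Benjamini-Hochberg adjusted p was below 0.05. Both fits share the BMP-2+Dynasore arrays and take their spread from the duplicates of the other 3 groups, so that the lone BMP-2+DMSO array is assumed to vary like them. Of the 411 lost probes, 346 (84.2%) were also lower on BMP-2+Dynasore replicate 2 than on replicate 1, against 41.3% of all tested probes, and the part of this loss in the changes below was not tested.

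By the smaller of the changes against the control arrays, the largest rises in BMP-2 treated cells with dynasore were those of Hmox1, Ddit3 and Egln3, and the largest falls those of Prelp, Slc1a3 and Sp7. Against BMP-2+DMSO replicate 1, 1586 probes were higher (15.5% of those tested) and 1379 lower (13.5%). Against replicate 2, 2949 were higher (28.8%) and 3936 lower (38.4%). In the same direction against each array, 765 probes were higher (7.47%) and 807 lower (7.88%), together 53% of the calls against replicate 1 and 22.8% of those against replicate 2. In a fit of all 8 arrays, with both BMP-2+DMSO arrays as duplicates, 181 probes were higher (1.77%) and 187 lower (1.83%), and all 368 were among those called against each array. In that fit, leaving out 1 array gave 3 to 42 higher and 3 to 23 lower, and a replicate block gave 103 and 100. A further 598 probes were called in opposite directions, 346 lower against replicate 1 and higher against replicate 2, and 252 the other way round. Of the calls against replicate 2, 42.8% were rises, which became 73.5% without quantile normalization and 22.9% with arrays scaled to equal medians. Of those against replicate 1, 53.5% were rises, which became 41.1% without quantile normalization and 61.4% with equal medians.

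**Figure D1:**
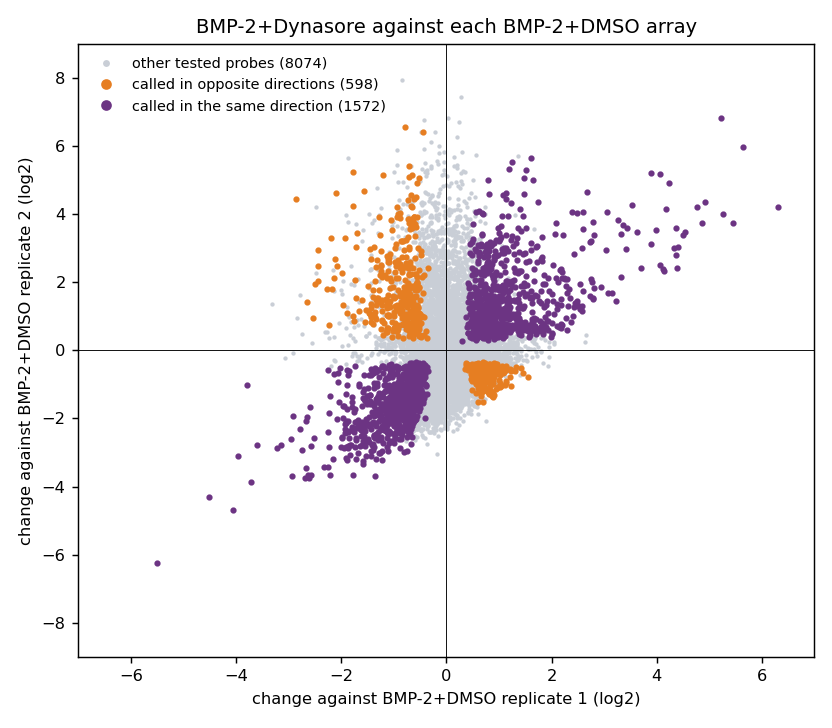
Change of each of the 10244 tested probes in BMP-2+Dynasore against BMP-2+DMSO replicate 1 (horizontal, log2) and against replicate 2 (vertical, log2). Probes called in the same direction (1572, purple) lie at the upper right and lower left, and those called in opposite directions (598, orange) at the other corners; both axes share the BMP-2+Dynasore arrays, and the vertical spread is wider.

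Hmox1, which encodes the heme-degrading enzyme heme oxygenase 1, had the highest rise by the smaller of its changes. Its log2 signals were 14.92 and 14.74 on the BMP-2+Dynasore arrays, against 9.19 and 8.87 on the BMP-2+DMSO arrays. Both BMP-2+Dynasore arrays lay far above both BMP-2+DMSO arrays, and Hmox1 was 49.7-fold higher against replicate 1 (limma adjusted p = 2.46e-05) and 62.3-fold higher against replicate 2 (adjusted p = 3.05e-06). Ddit3, which encodes the stress transcription factor CHOP, had signals of 13.27 and 12.81 in BMP-2+Dynasore, against 7.82 and 6.22 in BMP-2+DMSO. It was 37.2-fold higher against replicate 1 and at least 84.6-fold higher against replicate 2, where it was not above background. Such a lower bound sets the BMP-2+Dynasore mean against the lowest signal that counted as above background on the dim array, or the dim probe's own signal where that was higher. Egln3, a prolyl hydroxylase that marks HIF for degradation, had signals of 11.55 and 11.58 in BMP-2+Dynasore, against 6.65 and 7.20 in BMP-2+DMSO, and was 30.1-fold and 20.6-fold higher against replicates 1 and 2.

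The other genes of the 10 with the largest rises were Ppp1r15a, which encodes the phosphatase subunit GADD34 that reverses eIF2α phosphorylation (18.7-fold and 30.4-fold higher against replicates 1 and 2), the mast cell tryptase gene Tpsab1 (78.8-fold and 18.6-fold), the HIF-responsive Ndrg1 (16.7-fold and 36.6-fold), the pseudokinase gene Trib3 (38.5-fold and 16.2-fold), the mitochondrial pyrimidine nucleotide carrier gene Slc25a33 (14.9-fold against replicate 1 and at least 17.4-fold against replicate 2), the glutathione transferase gene Gsta2 (29-fold and 13.5-fold) and the cystine transporter gene Slc7a11 (44-fold and 13.2-fold). In all 10 genes the BMP-2+Dynasore arrays lay above both BMP-2+DMSO arrays, as their choice required. Of all 10244 tested probes, 2012 lay above both in this way and 2404 below both. Ndrg1 had a further tested probe, which was 4.17 and 4.16 higher on the log2 scale.

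The largest fall was that of Prelp, a leucine-rich proteoglycan of cartilage and bone matrix. Its log2 signals were 6.91 and 7.27 in BMP-2+Dynasore, against 12.60 and 13.32 in BMP-2+DMSO. Prelp was 45.6-fold lower against replicate 1 (limma adjusted p = 3.75e-08) and 75.1-fold lower against replicate 2 (adjusted p = 2.93e-09). Sp7, which encodes the osteoblast transcription factor osterix, had signals of 5.71 and 5.92 in BMP-2+Dynasore, where neither array was above background, against 9.87 and 10.50 in BMP-2+DMSO. It was at least 13.9-fold lower against replicate 1 and at least 21.5-fold lower against replicate 2. Ccn2, the matricellular protein CTGF, had signals of 8.71 and 9.12 in BMP-2+Dynasore, against 12.64 and 12.79 in BMP-2+DMSO, and was 13.2-fold and 14.7-fold lower. The groups did not overlap in any of these genes, as their choice required.

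Among the 10 largest falls were also the glutamate transporter gene Slc1a3 (22.9-fold and 19.8-fold lower against replicates 1 and 2), the Wnt receptor gene Fzd2 (15.6-fold and 8.65-fold), Hsd17b7 of the late steps of cholesterol synthesis (7.69-fold and 12.9-fold), the serine protease gene Htra3 (9.31-fold and 7.33-fold), the MYC and E2F responsive gene Cdca7 (8.81-fold and 6.87-fold), Sertad4 (12.2-fold and 6.82-fold) and Rgs4, which encodes an inhibitor of G protein signalling (6.71-fold and 7.64-fold).

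**Figure D2:**
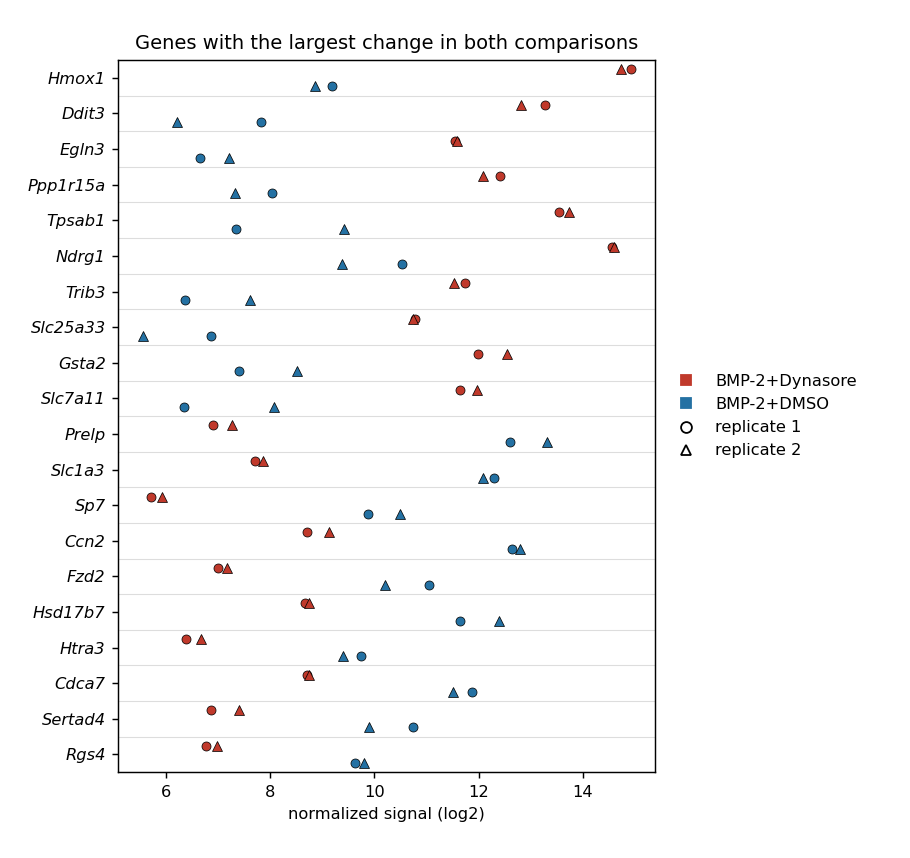
Normalized log2 signal of the 10 genes with the largest rises (top) and the 10 with the largest falls (bottom) on the 2 BMP-2+Dynasore arrays (red) and the 2 BMP-2+DMSO arrays (blue); circles are replicate 1 and triangles replicate 2. In each gene both red marks lie on the same side of both blue marks, as the choice of the genes required.

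Members of the BMP and Smad target list were called in both directions, and of 27 listed genes 20 were tested. Over all tested probes 7.47% were higher and 7.88% lower against each array, shares that stand beside every list count below. Of the 20 tested genes 2 were higher and 6 lower. Their median change was -0.52 against replicate 1 and 0.07 against replicate 2 on the log2 scale, beside -0.01 and -0.14 for all 9390 tested genes. Id1 had signals of 9.84 and 9.71 in BMP-2+Dynasore, against 11.20 and 10.31 in BMP-2+DMSO, and fell by 1.43 ± 0.16 (SE) against replicate 1 (limma adjusted p = 0.000112) and by 0.54 ± 0.17 against replicate 2 (adjusted p = 0.0137). Id3 had signals of 11.35 and 11.29 in BMP-2+Dynasore, against 11.86 and 11.85 in BMP-2+DMSO, and fell by 0.54 against each. The groups did not overlap in Id1 or Id3, while in Id2 they did, with 8.45 and 8.56 in BMP-2+Dynasore against 8.55 and 8.34 in BMP-2+DMSO, and Id2 was not called (adjusted p = 0.909 and 0.527).

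The homeobox genes Dlx1, Dlx2 and Dlx3, which take part in skeletal development, did not move alike. Dlx1 had signals of 8.28 and 8.76 in BMP-2+Dynasore, against 10.46 and 10.16 in BMP-2+DMSO, and was 3.84-fold and 3.12-fold lower. Dlx2, with 9.13 and 9.63 in BMP-2+Dynasore against 10.11 and 10.74 in BMP-2+DMSO, was 1.66-fold lower against replicate 1 (limma adjusted p = 0.0396) and 2.56-fold lower against replicate 2 (adjusted p = 0.000455). Dlx3, with 12.11 and 12.33 in BMP-2+Dynasore against 11.54 and 11.82 in BMP-2+DMSO, was 1.6-fold and 1.32-fold higher, though it was lower against replicate 2 when arrays were scaled to equal medians. Grem1, a secreted BMP antagonist, was 10.7-fold and 7.95-fold higher, and Atoh8, a helix-loop-helix factor gene, was 3.18-fold and 1.99-fold lower, though higher against replicate 2 without quantile normalization.

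The Notch and BMP responsive repressor gene Hey1 had signals of 11.97 and 12.35 in BMP-2+Dynasore, against 12.66 and 12.48 in BMP-2+DMSO. It fell by 0.50 against replicate 1 (limma adjusted p = 0.0496), while against replicate 2 its change was -0.32 (adjusted p = 0.122). Zbtb2, a zinc finger factor gene, changed by 0.42 and 0.29 (adjusted p = 0.122 and 0.202) and the keratin gene Krt16 by 0.01 and 0.09 (adjusted p = 0.993 and 0.785), and neither was called against either array. None of Id1, Id3, Dlx2, Dlx3 and Hey1 was called in the fit of all 8 arrays (adjusted p between 0.162 and 0.315). Nor were Tgfb3, Ulk1, Kazald1, Atoh8 and Pparg, so this was not particular to BMP targets. That fit called higher 14 of 27 tested ATF4 and CHOP stress genes and 10 of 19 hypoxia genes. It called higher 2 of 15 ER chaperones, 3 of 19 aminoacyl-tRNA synthetases and 4 of 19 glycolytic enzymes, beside 1.77% of all tested probes.

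**Figure D3:**
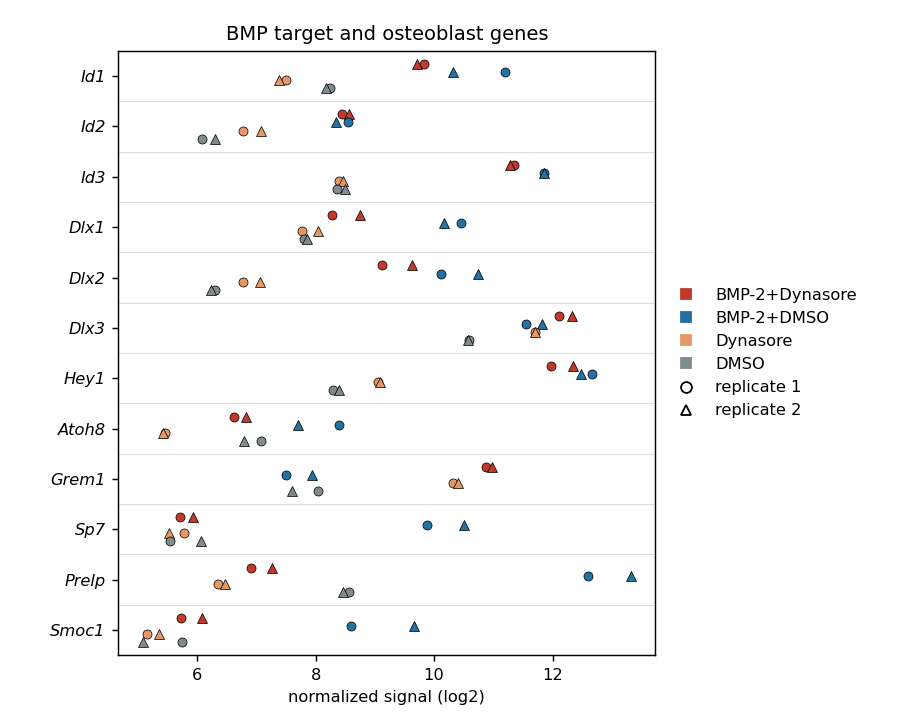
Normalized log2 signal of BMP target and osteoblast genes on the arrays of BMP-2+Dynasore (red), BMP-2+DMSO (blue), Dynasore (orange) and DMSO (grey), with circles for replicate 1 and triangles for replicate 2. Sp7, Prelp and Smoc1 in BMP-2+Dynasore lie near the arrays without BMP-2, whereas Id2, Id3, Dlx2 and Hey1 lie near BMP-2+DMSO.

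Of the receptors and signal carriers of the pathway 17 of 21 were tested, with 1 higher and 2 lower against each array, shares near those of all tested probes (7.47% and 7.88%), and medians of 0.18 and -0.51. Smad5, a carrier of the BMP signal, was 2.44-fold and 4.25-fold lower by its brighter probe, and its other probe was 1.77 higher on the log2 scale against replicate 2 and 0.92 lower against replicate 1. Tgfbr2, the type II TGF-beta receptor gene, was 1.78-fold and 1.97-fold lower. Bmpr2, the type II BMP receptor gene, was 1.52-fold higher against replicate 1 (limma adjusted p = 0.0487) and at least 1.18-fold higher against replicate 2.

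Osteoblast genes had the lowest medians of the pathway lists, -1.23 and -2.37. Of 20 listed genes 11 were tested, none was higher and 6 were lower against each array. Beside Prelp and Sp7 these were Smoc1, a matricellular modulator of BMP signalling (6.42-fold and 13.5-fold lower), the growth factor binding protein gene Kazald1 (at least 2.4-fold and at least 5.4-fold lower), Omd, which encodes the bone matrix protein osteomodulin (at least 2-fold and at least 7.32-fold lower), and Alpl, the tissue-nonspecific alkaline phosphatase gene. Alpl had signals of 6.50 and 6.41 in BMP-2+Dynasore, against 7.13 and 7.82 in BMP-2+DMSO, and changed by -0.68 and -1.37 on the log2 scale. Col1a1, the main collagen of bone, was called in opposite directions. Smoc1 was above background on 1 of the 2 BMP-2+Dynasore arrays, so its fold rests partly on a dim signal. Sp7 was above background on the BMP-2+DMSO arrays alone, so it entered the test only through its signal there and could only be lower. Of the 11 tested genes, 4 were above background on all 4 compared arrays, which limits the count and the medians of this list.

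Of the 27 listed genes of TGF-beta, CCN and YAP signalling 20 were tested, with medians of -0.65 and -0.17. Over all tested probes 7.47% were higher and 7.88% lower against each array. In this list 3 were called in opposite directions, 2 were higher and 6 were lower. Beside Ccn2 these included Tgfb2 and Tgfb3, which encode TGF-beta ligands (2.14-fold and 4.05-fold lower, and 13.9-fold and 2.04-fold lower), and Tgfbi, a TGF-beta induced matrix protein gene (at least 2.59-fold and at least 4.93-fold lower). The actin-regulated genes of SRF had 5 of 19 tested (25 listed) lower and none higher against each array, with medians of -0.35 and -0.66. Srf itself had signals of 6.94 and 7.33 in BMP-2+Dynasore, against 8.94 and 9.93 in BMP-2+DMSO, and was 3.5-fold and 6.92-fold lower. Csrp2, a LIM protein of smooth muscle, was 3.74-fold and 7.2-fold lower, calponin 3 gene Cnn3 2.99-fold and 2.33-fold lower and the focal adhesion gene Vcl 1.67-fold and 2.09-fold lower. Of the collagens and matrix genes, 6 of 20 tested (31 listed) were lower and none was higher against each array, with 4 called in opposite directions. The membrane-bound protease gene Mmp14 was 2.95-fold and 4.94-fold lower and the lysyl oxidase-like gene Loxl1 2.83-fold and 4.6-fold lower.

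Stress genes under ATF4 and CHOP were the list with the most members called higher, 17 of 27 tested (29 listed), with 1 lower, Gadd45g, against each array. The medians were 1.32 and 1.95, beside -0.01 and -0.14 for all tested genes. Atf3, a stress-induced transcription factor gene, had signals of 9.49 and 9.77 in BMP-2+Dynasore, against 5.65 and 6.11 in BMP-2+DMSO, where it was not above background, and was at least 11.9-fold and at least 7.95-fold higher. Enzymes of amino acid synthesis and one-carbon metabolism followed, with 8 of 13 tested (18 listed) higher and none lower. Among them Mthfd2, of mitochondrial folate metabolism, was 5.2-fold higher against replicate 1 and at least 10.8-fold against replicate 2, and Gpt2, an alanine aminotransferase gene, 10-fold and 4.48-fold. Of the cytosolic aminoacyl-tRNA synthetase genes 10 of 19 tested (20 listed) were higher and none lower, among them Sars (4.54-fold and 2.87-fold), Nars (3.39-fold and 2.75-fold) and Aars (5.64-fold and 2.48-fold).

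Of 13 tested amino acid transporter genes (15 listed) 4 were higher, among them Slc7a5 of leucine uptake (7.02-fold and 10.4-fold) and the glycine transporter gene Slc6a9 (8.84-fold and 3.21-fold), and Slc1a3 was lower. ER chaperones and unfolded protein response genes had 9 of 15 tested (20 listed) higher and none lower, with Dnajb9, an ER co-chaperone, 6.95-fold and 3.59-fold higher and Xbp1, whose product switches on ER chaperones, 2.17-fold and 1.92-fold higher. Of the heat shock genes 5 of 18 tested (21 listed) were higher and none lower against each array, among them the mitochondrial chaperone gene Hspa9 (2.83-fold and 3.03-fold) and the collagen chaperone gene Serpinh1 (2.58-fold and 2.85-fold). A further 3 heat shock genes were called in opposite directions, and over all tested probes 7.47% were higher and 7.88% lower against each array. Xbp1, Hsph1 and Dnajb1 were lower against replicate 2 when arrays were scaled to equal medians.

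The promoters of Atf3 and Slc7a11, the 250 bases before the start of each gene from RefSeq (GRCm38.p6), are shown because both genes rose and the table holds the C/EBP-ATF composite element in each. The Atf3 promoter is chr1:191183334-191183583 on the minus strand and that of Slc7a11 chr3:50443614-50443863 on the minus strand; capitals mark TGATGNAA, searched on both strands, which 3.45% of all 32851 promoters held.
Atf3: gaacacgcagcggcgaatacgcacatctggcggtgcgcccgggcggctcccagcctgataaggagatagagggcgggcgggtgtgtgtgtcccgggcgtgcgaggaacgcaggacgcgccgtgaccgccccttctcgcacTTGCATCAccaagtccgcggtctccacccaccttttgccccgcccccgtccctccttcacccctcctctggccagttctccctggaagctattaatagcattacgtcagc
Slc7a11: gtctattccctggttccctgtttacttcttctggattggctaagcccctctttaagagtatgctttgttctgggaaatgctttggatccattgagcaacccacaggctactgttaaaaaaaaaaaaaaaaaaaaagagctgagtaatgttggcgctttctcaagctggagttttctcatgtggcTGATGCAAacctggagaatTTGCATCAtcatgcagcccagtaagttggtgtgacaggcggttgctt

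The element lay once in the Atf3 promoter and at 2 places in that of Slc7a11. Of the ATF4 and CHOP stress genes, 8 of 26 with a promoter in the table held it, beside 3.91% of all genes. A match describes the letters and is no evidence of binding.

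Hypoxia and HIF target genes had the highest medians of the pathway lists, 2.30 and 2.80, with 14 of 19 tested (24 listed) higher and none lower against each array. Hk2, the hexokinase that commits glucose to glycolysis, had signals of 13.97 and 14.07 in BMP-2+Dynasore, against 9.53 and 10.63 in BMP-2+DMSO, and was 22.5-fold and 10.5-fold higher. Slc2a1, the glucose transporter GLUT1 gene, had 14.87 and 15.07 in BMP-2+Dynasore, against 10.61 and 12.17 in BMP-2+DMSO, and was 20.5-fold and 6.96-fold higher. The groups overlapped in neither. Selenbp1, a selenium binding protein gene, was 11.6-fold higher against replicate 1 and at least 9.71-fold higher against replicate 2. Of the glycolytic enzyme genes 11 of 19 tested (19 listed) were higher and none lower, with Eno2 21.1-fold and 8.23-fold higher and Pfkl 3.57-fold and 3.83-fold higher. The promoters of Egln3 (chr12:54203875-54204124, minus strand) and Hk2 (chr6:82774455-82774704, minus strand) are shown as members of this group, with capitals for ACGTG, the core of the hypoxia response element, on either strand, which 16.6% of all promoters held.
Egln3: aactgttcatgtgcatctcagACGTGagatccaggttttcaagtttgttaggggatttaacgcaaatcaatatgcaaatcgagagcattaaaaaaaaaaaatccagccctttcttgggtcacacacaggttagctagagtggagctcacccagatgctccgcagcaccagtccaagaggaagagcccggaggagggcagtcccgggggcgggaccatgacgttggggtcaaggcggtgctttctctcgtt
Hk2: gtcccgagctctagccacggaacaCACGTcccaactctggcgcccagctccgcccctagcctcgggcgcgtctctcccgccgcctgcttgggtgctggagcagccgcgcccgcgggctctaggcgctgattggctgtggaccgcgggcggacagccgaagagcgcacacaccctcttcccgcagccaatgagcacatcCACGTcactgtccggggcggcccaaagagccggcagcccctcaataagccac

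Of the hypoxia list, 15 of 21 genes with a promoter in the table held the core, beside 18.5% of all genes. NRF2 target genes had medians of 1.00 and 0.76, with 8 of 20 tested (26 listed) higher and none lower, beside 7.47% and 7.88% of all tested probes. Srxn1, which reduces hyperoxidized peroxiredoxins, was 6.06-fold and 11.8-fold higher, and Gclm, the modifier subunit of glutamate-cysteine ligase, was 6.81-fold and 4.03-fold higher. Of 14 tested iron and metal handling genes (18 listed) 5 were higher and none lower, with the transferrin receptor gene Tfrc 3.5-fold and 3.38-fold higher and the iron sensor gene Ireb2 1.68-fold and at least 4.44-fold higher. The metallothionein gene Mt2 was 3.53-fold and 1.63-fold higher.

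Of the cholesterol and lipid synthesis genes, 11 of 28 tested (34 listed) were lower and 1, Insig2, was higher against each array. Against replicate 1 alone 19 were lower and 1 higher, and against replicate 2 alone 14 were lower and 10 higher, with medians of -1.09 and -0.67. Hmgcs1, which makes the precursor of mevalonate, had signals of 12.00 and 12.15 in BMP-2+Dynasore, against 14.74 and 15.54 in BMP-2+DMSO, and was 6.35-fold and 11-fold lower. The groups did not overlap. Fdps, which makes farnesyl pyrophosphate, was 6.25-fold and 3.9-fold lower and Nsdhl of sterol demethylation 7.51-fold and 3.82-fold lower. Nsdhl was above background on 1 of the 2 BMP-2+Dynasore arrays, so its fold rests partly on a dim signal. A further 6 members, Pmvk, Mvd, Sqle, Cyp51, Dhcr7 and Fads2, were lower against replicate 1 and higher against replicate 2. Cyp51 had 9.57 and 8.94 in BMP-2+Dynasore, against 11.45 and 5.94 in BMP-2+DMSO. The promoter of Hmgcs1 (chr13:119690101-119690350, plus strand), shown because the gene fell most in this list with a match, has in capitals TCACNCCAC, the core of the sterol regulatory element, which 1.05% of all promoters held.
Hmgcs1: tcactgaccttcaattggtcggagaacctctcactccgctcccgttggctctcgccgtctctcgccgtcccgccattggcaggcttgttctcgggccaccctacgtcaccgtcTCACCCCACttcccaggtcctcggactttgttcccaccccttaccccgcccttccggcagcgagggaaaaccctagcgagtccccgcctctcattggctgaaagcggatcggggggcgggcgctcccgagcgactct

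It was the only one of 23 list members with a promoter in the table that held these letters, beside 1.22% of all genes. The Srf promoter (chr17:46556163-46556412, minus strand) is shown because Srf fell, as did several genes of the SRF list. Capitals mark the CArG box, the site of SRF, which 1.47% of all promoters held. Of the SRF list, 8 of 22 genes with a promoter in the table held it, beside 1.62% of all genes. Whether these genes fell through SRF was not tested, and a match is no evidence of binding.
Srf: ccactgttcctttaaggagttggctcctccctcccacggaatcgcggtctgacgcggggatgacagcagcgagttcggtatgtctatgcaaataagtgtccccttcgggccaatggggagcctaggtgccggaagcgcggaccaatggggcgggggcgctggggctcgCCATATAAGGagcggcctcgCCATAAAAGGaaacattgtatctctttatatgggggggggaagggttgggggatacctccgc

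**Figure D4:**
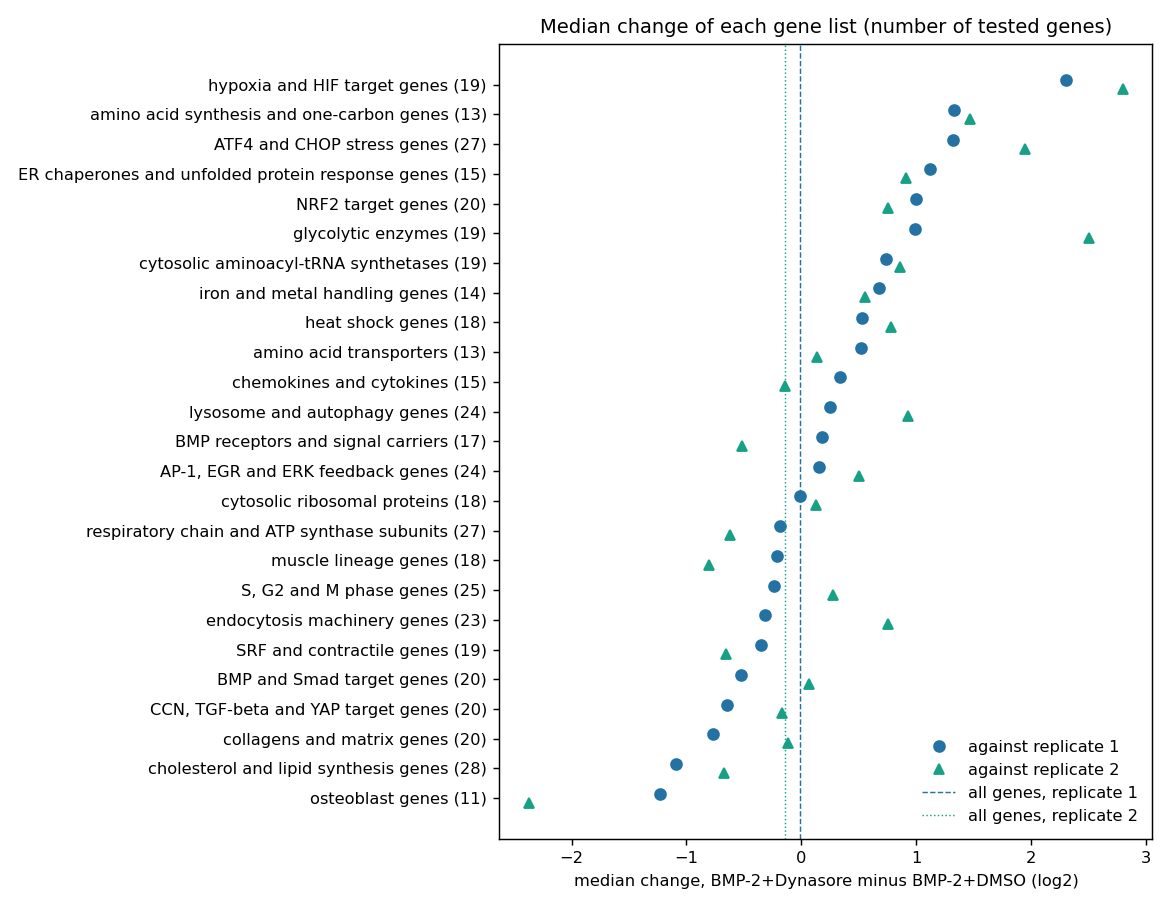
Median change of each gene list in BMP-2+Dynasore against BMP-2+DMSO replicate 1 (circles) and replicate 2 (triangles), in log2, with the number of tested genes in brackets and the median of all tested genes as dashed and dotted lines. Marker lists of cell types are not drawn; of the lists shown, the hypoxia list lies highest and the osteoblast list lowest with either array, and the cholesterol list is next to lowest against replicate 1; both symbols share the BMP-2+Dynasore arrays.

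Of the endocytosis machinery 23 of 30 genes were tested, with 1 higher and 2 lower against each array, shares near the 7.47% and 7.88% of all tested probes, and 3 called in opposite directions. The genes below are therefore given for their own values, not as a result about the group. Cav1, the coat protein of caveolae, had signals of 10.12 and 10.14 in BMP-2+Dynasore, against 11.46 and 11.56 in BMP-2+DMSO, and was 2.52-fold and 2.7-fold lower. Rab11a, a GTPase of recycling endosomes, was 2.08-fold and 2.15-fold lower, though higher against replicate 2 without quantile normalization, and Rab5a, a GTPase of early endosomes, was 1.54-fold higher against replicate 1 (limma adjusted p = 0.0491) and 4.95-fold against replicate 2. Of 24 tested lysosome and autophagy genes (30 listed) 7 were higher and 1, Map1lc3b, lower, with the proton pump subunit gene Atp6v1b2 2.24-fold and 2.61-fold higher and the autophagy kinase gene Ulk1 2.75-fold and 15.3-fold higher. The immediate early and ERK feedback genes had 7 of 24 tested (29 listed) higher and 1, Egr1, lower. Ier3, an early response gene, was 20.6-fold and 12-fold higher and Dusp4, which encodes a phosphatase of ERK, 14.9-fold and 8.66-fold higher.

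Markers of muscle cells were uneven. Myod1, the myogenic master regulator, had signals of 6.78 and 6.39 in BMP-2+Dynasore, against 9.13 and 5.63 in BMP-2+DMSO, and was lower against replicate 1 (limma adjusted p = 1.86e-05). On BMP-2+DMSO replicate 2 it was not above background, and no fold against that array is given: the fitted change of 0.95 became -0.14 with equal medians. Des, which encodes the muscle intermediate filament protein desmin, was 1.7-fold and 3.23-fold lower. Of the 9 myoblast markers 5 were tested, with summed signals of 28547 and 14032 in BMP-2+Dynasore, against 34506 and 11309 in BMP-2+DMSO. These sums include Vim, a bright probe lost on BMP-2+DMSO replicate 2. Its log2 signals were 14.50 and 13.22 in BMP-2+Dynasore, against 14.71 and 5.92 in BMP-2+DMSO. The sums therefore cannot be read as an amount of myoblasts. Among markers of other cell types, 1 of 7 macrophage, 0 of 6 endothelial, 2 of 6 epithelial and 1 of 6 adipocyte genes were tested. The epithelial sum was 2150 and 2243 in BMP-2+Dynasore against 8468 and 12770 in BMP-2+DMSO, as Krt14 was 3.98-fold and 5.98-fold lower. Pparg, a nuclear receptor of adipocytes, was 5.3-fold and 1.99-fold higher. Krt8, the other tested epithelial marker, changed by 0.39 and -0.74 on the log2 scale against replicates 1 and 2. The samples were 1 established line, and these values rest on few genes, so they are not read as amounts of other cell types. In bulk RNA, fewer cells of a type and less RNA per cell cannot be told apart.

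Probes called in opposite directions show how far the control arrays differed. Fstl1, a secreted glycoprotein, had signals of 10.76 and 9.97 in BMP-2+Dynasore, against 13.22 and 5.92 in BMP-2+DMSO. Wdr6, a WD repeat protein gene, had 9.46 and 9.28 in BMP-2+Dynasore, against 11.81 and 6.90 in BMP-2+DMSO. Both lay between the BMP-2+DMSO arrays, as did Palld and Septin5. Tspyl2, Rnf113a1, Gnaz, Slc27a3 and Nmd3 lay between them the other way round, with changes of 0.99 to 1.24 against replicate 1 and of -1.08 to -1.02 against replicate 2, which turned to 0.016 for Tspyl2 and 0.13 for Nmd3 without quantile normalization. Among the probes lost on replicate 2, Tuba1b, a tubulin gene, had 15.07 and 15.03 in BMP-2+Dynasore, against 15.84 and 8.47 in BMP-2+DMSO.

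Without BMP-2, Dynasore was compared with DMSO on 4 arrays that are not among those above. In the same 7-array fit, 1843 probes were higher (18%) and 1993 lower (19.5%). Of the 1572 probes called against each BMP-2+DMSO array, 1391 (88.5%) were called in the same direction without BMP-2, which was 36.3% of the calls there, while 6 were called in the opposite direction and 175 were not called. Hmox1 was 6.42 higher on the log2 scale without BMP-2 (limma adjusted p = 3.17e-06), Ddit3 5.10, Hk2 4.57 and Slc7a11 5.82, and Slc1a3 fell by 4.09 and Hmgcs1 by 2.74. Id1 fell by 0.77 without BMP-2, with signals of 7.50 and 7.38 in Dynasore, against 8.24 and 8.17 in DMSO. Id3 changed by 0.00, with 8.40 and 8.46 in Dynasore, against 8.36 and 8.50 in DMSO.

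The difference between the changes with and without BMP-2 was tested as an interaction. In both 7-array fits and the same direction, 41 probes had a higher change under BMP-2 and 22 a lower one. The interaction contains the change against BMP-2+DMSO, so its calls overlap in part by construction with those against each BMP-2+DMSO array. Prelp fell by 2.09 without BMP-2, with signals of 6.35 and 6.47 in Dynasore, against 8.56 and 8.45 in DMSO, and its change under BMP-2 was lower by a further 3.42 against replicate 1 (limma adjusted p = 0.000232). Dlx1 changed by 0.07 without BMP-2, with 7.76 and 8.04 in Dynasore, against 7.80 and 7.86 in DMSO, and its change under BMP-2 was 2.02 lower. Hey1 was 0.73 higher without BMP-2, with 9.05 and 9.08 in Dynasore, against 8.29 and 8.39 in DMSO, and its change under BMP-2 was 1.23 lower. For Id1 the interaction had adjusted p = 0.223 and 0.387 in the 2 fits. No probe was called in the fit of all 8 arrays, where 227 had an unadjusted p under 0.05.

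**Figure D5:**
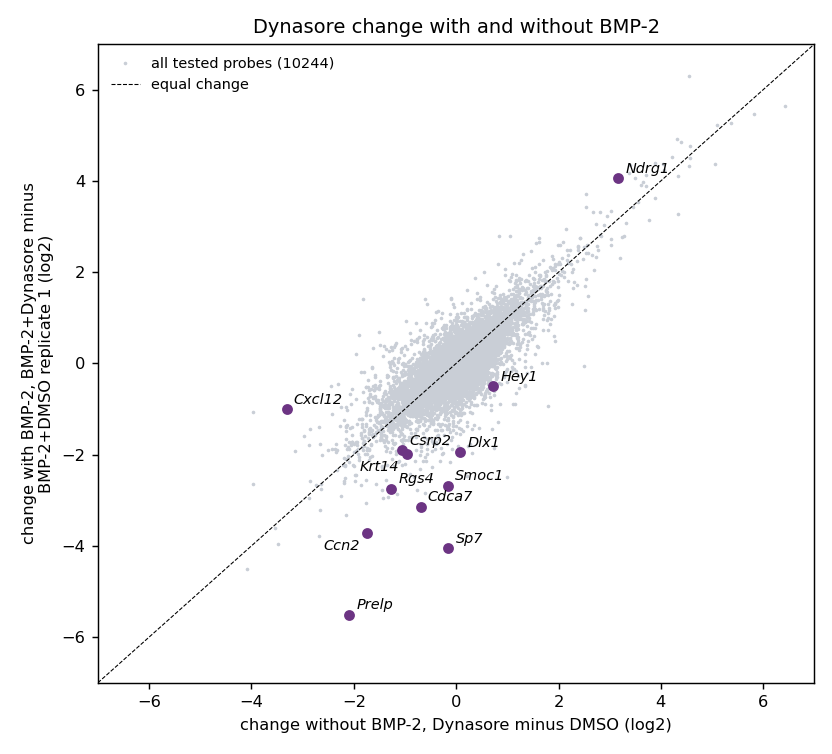
Change with dynasore without BMP-2 (horizontal, Dynasore minus DMSO, log2) and with BMP-2 (vertical, BMP-2+Dynasore minus BMP-2+DMSO replicate 1, log2) for the 10244 tested probes, with the line of equal change. Purple marks are the named genes whose interaction was called in both fits, among which Sp7 and Prelp lie farthest below the line and Cxcl12 and Ndrg1 above it. Ndrg1 is drawn by its brighter probe. Sp7 and Smoc1 were not above background on any array without BMP-2, so their horizontal values could not show a fall.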

How the data were processed

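C2C12 RNA was hybridised to Illumina MouseRef-8 BeadChips, and the authors deposited linear intensities per probe after rank invariant normalization in BeadStudio 3.0, per the labels and the methods. Some deposited intensities lie below 0. A table of signals before normalization was not used, since its 8 signal columns are numbered without naming samples. Here intensities were corrected by normexp (offset 16), then all 8 arrays were quantile normalized and log2 transformed in R 4.3.3 with limma 3.58.1. A probe was above background if over 1.645 SD past the most frequent dim intensity, and was tested when above it on at least 2 arrays. Group means were fitted with lmFit and eBayes (trend, robust) on 7 arrays, with BMP-2+DMSO replicate 1 or 2, which left 3 residual degrees of freedom. p-values were adjusted over all 10244 probes by Benjamini-Hochberg. The methods call the 2 samples of a group biological duplicates. The p-values of the 7-array fits measure the spread within the other groups and hold none of that between the BMP-2+DMSO arrays. The SD of the difference between duplicates was 1.44 for BMP-2+DMSO, against 0.44 for BMP-2+Dynasore, 0.22 for Dynasore and 0.23 for DMSO. The number of arrays limits the precision. The brightest tested probe stands for a gene. Symbols came from the platform table, updated through RefSeq for GRCm38.p6, and 1252 probes had none.

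Named were the 10 genes in each direction with the largest smaller change, among those called against each array without overlap of the groups. Also named were up to 4 genes per list and some of the genes the study names from the arrays (Id1, Id2, Id3, Dlx2, Dlx3, Hey1, Zbtb2, Krt16). Up to 5 called in opposite directions each way, or lost on BMP-2+DMSO replicate 2, were added. The members and the 30 lists were chosen with earlier results of these data known. The labels do not say whether replicate numbers pair the samples, and they were not taken as pairs. Other corrections, scalings, filters and variance models, a replicate block, the methods' one-way test and leaving out arrays were tried. The limma fit was also run on simulated data. The simulation gave all arrays of a probe the same spread, so it cannot speak to the wider spread between the BMP-2+DMSO arrays.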

Additional observations from a re-analysis of the deposited data

Results flagged for a closer look

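In the genes below the change with dynasore differed between cells with and without BMP-2 in both 7-array fits, by the interaction test of limma with Benjamini-Hochberg adjustment. The values below are the change with BMP-2, against BMP-2+DMSO replicate 1, minus the change without it, on the log2 scale, with adjusted p from 0.000232 to 0.033. The difference was -3.42 in Prelp, -3.90 in Sp7, -1.99 in Ccn2, -2.44 in Cdca7 and -1.47 in Rgs4. It was -2.02 in Dlx1, -2.52 in Smoc1, -0.85 in Csrp2, -1.03 in Krt14 and -1.23 in Hey1. It was 2.31 in Cxcl12, a chemokine gene, and 0.89 in Ndrg1 by its brighter probe. The other tested Ndrg1 probe had 0.79 and was not called against replicate 1. In the fit of all 8 arrays no probe was called, and 227 had an unadjusted p under 0.05. Sp7 and Smoc1 were not above background on any array without BMP-2, so that no fall could be measured there. Cxcl12 had 6.94 and 7.02 in Dynasore, against 10.27 and 10.32 in DMSO, and 6.63 and 6.68 in BMP-2+Dynasore, against 7.66 and 8.55 in BMP-2+DMSO.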

How the results depend on the processing

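Probes called against each array numbered 497 higher with arrays scaled to equal medians, in place of 765, and 181 higher and 187 lower with both BMP-2+DMSO arrays in 1 fit. The other alternatives kept these counts within 1.5 times. Against replicate 2 there were 1807 higher and 6081 lower with equal medians, 1568 lower without quantile normalization, 1610 higher among probes above background on all 8 arrays, and 1514 higher by the methods' one-way test, which after Benjamini-Hochberg adjustment left 1316. Scaling moved the median of all probes against replicate 2, which was -0.12, to -0.82 with equal medians and to 0.43 without quantile normalization. Leaving out 1 array of the other groups gave 1125 to 2126 lower against replicate 1, the highest without BMP-2+Dynasore replicate 1. In the fit of all 8 arrays it gave 3 to 42 higher and 3 to 23 lower, an alternative chosen after seeing the data, with 3 each without either BMP-2+Dynasore array.

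With the replicate block, 630 were higher and 694 lower against each array, and 103 higher and 100 lower in the fit of 8 arrays. Differences between duplicates correlated at 0.50 between BMP-2+Dynasore and BMP-2+DMSO, the groups compared here, and between -0.28 and 0.00 for the other pairs of groups. The numbers were not taken as pairs, and whether BMP-2+Dynasore and BMP-2+DMSO were paired was not tested.

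Of 3964 values of the 134 named genes under the alternatives, 3813 kept their direction and their side of the threshold, 106 lost and 32 gained a call, and 13 turned direction. All 13 were against replicate 2. With equal medians the log2 changes became -0.77 for Tgfbr3, -0.20 for Xbp1, -0.049 for Hsph1, -0.41 for Dnajb1, -0.052 for Csf1, -0.088 for Rpl30, -0.14 for Myod1 and -0.67 for Dlx3. Without quantile normalization they became 0.23 for Atoh8, 0.13 for Rab11a, 0.22 for Krt8, 0.016 for Tspyl2 and 0.13 for Nmd3. The causes were not tested. The raised background of BMP-2+DMSO replicate 2 limits what can be said of dim probes there.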

Other observations

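Genes of the S, G2 and M phases had 3 of 25 tested (30 listed) higher and 4 lower against each array, with 5 called in opposite directions. For this list and the others in this paragraph, the shares over all probes were 7.47% higher and 7.88% lower against each array, and the counts are few, so the genes are given for their own values. The mitotic kinase gene Plk1 had log2 signals of 8.92 and 8.83 in BMP-2+Dynasore, against 10.76 and 12.11 in BMP-2+DMSO, and was 3.69-fold and 9.41-fold lower. Aurka, another mitotic kinase gene, was 2.06-fold and 1.66-fold lower, whereas the cyclin genes Ccne2 and Ccnd2 were 2-fold and 1.62-fold higher against replicate 1. Respiratory chain and ATP synthase subunits had 2 of 27 tested (32 listed) lower and none higher, among them Ndufb3, which was 1.85-fold and 2.11-fold lower. Of 18 tested cytosolic ribosomal protein genes (31 listed) 1, Rpl3, was lower against each array, with 14.67 and 14.54 in BMP-2+Dynasore, against 14.98 and 15.10 in BMP-2+DMSO. Chemokine and cytokine genes had 1 of 15 tested (20 listed) higher, the macrophage growth factor gene Csf1 (4.51-fold and 1.56-fold, though -0.052 on the log2 scale against replicate 2 with equal medians), and 2 lower, Cxcl12 and Ctf1. Muscle lineage genes had 2 of 18 tested (27 listed) higher and 2 lower, and Tnnc1, the slow and cardiac troponin C gene, was 2.12-fold and 3.71-fold higher.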
